A study of Mus musculus with 30 samples.

Results

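The genes described here are 10 genes of glucose uptake and glycolysis: the glucose transporters Slc2a1 and Slc2a3, the hexokinases Hk1 and Hk2, the phosphofructokinase subunits Pfkp and Pfkl, the aldolase Aldoa, the phosphoglycerate kinase Pgk1, the pyruvate kinase Pkm and the lactate dehydrogenase subunit Ldha. They were chosen by name, with earlier results of these data known. All 10 were among the 29555 gene identifiers of the deposited count tables. All 10 passed the filter on low counts in every comparison. The study used mouse epiblast stem cells (EpiSCs), pluripotent lines that resemble the epiblast just before gastrulation, and definitive endoderm (DE) made from them; RNA-seq gave transcript levels and ATAC-seq the accessibility of chromatin. The RNA-seq libraries used were 5 of C57BL/6 (B6) EpiSCs, 4 of B6 DE, 3 of PWK/PhJ EpiSCs, 3 of B6.129 F1 EpiSCs and 1 of DBA/2J EpiSCs. ATAC-seq had 4 libraries of B6 EpiSCs, 4 of B6 DE, and 2 of PWK/PhJ EpiSCs; its single library of DBA/2J EpiSCs was not analysed here. The labels list passage p5-p10 and no treatment for all samples, and no genetic change for any group. Per the labels, EpiSCs were cultured on feeder cells in N2B27-based medium with Fgf2, ActivinA and the Wnt inhibitor NVP-TNKS656, and were lifted with collagenase. DE cells were made from B6 EpiSCs first with CHIR99201 and ActivinA for 16 h and then with ActivinA and LDN193189 for 24 h, and CXCR4+ cells were kept by magnetic sorting. The labels also state a total of 46 h for this, and they do not say why the steps sum to less. The factors in the medium thus differed between EpiSCs and DE, and the glucose content of the media is not given in the sources used here.

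Glucose enters cells through facilitative transporters of the Slc2a family, and hexokinases trap it as glucose 6-phosphate. Phosphofructokinase commits the sugar to glycolysis, aldolase splits it, phosphoglycerate kinase and pyruvate kinase make ATP, and lactate dehydrogenase turns pyruvate into lactate while it regenerates NAD+. Several steps are carried out by isozymes from different genes. Pluripotent cells of the primed state, to which EpiSCs belong, are known for high glycolysis, and many glycolytic genes are known targets of the hypoxia-inducible factors (HIF) and of Myc, whose binding sites contain the letters ACGTG and CACGTG.

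RefSeq (GRCm38.p6) listed 14 promoters for 9 of the 10 genes. The 250 bases before the start of 4 genes are shown because these genes hold the letters ACGTG there and moved in different ways in the comparisons below. Slc2a1 (chr4:119108495-119108744, + strand) and Ldha (chr7:46845554-46845803, + strand) rose in DE, Hk2 (chr6:82774455-82774704, - strand) fell in DE, and Pgk1 (chrX:106186850-106187099, + strand) fell in PWK EpiSCs. Each is written 5′ to 3′ on the gene's strand, and capitals mark ACGTG on either strand (CACGT on the strand shown).
Slc2a1: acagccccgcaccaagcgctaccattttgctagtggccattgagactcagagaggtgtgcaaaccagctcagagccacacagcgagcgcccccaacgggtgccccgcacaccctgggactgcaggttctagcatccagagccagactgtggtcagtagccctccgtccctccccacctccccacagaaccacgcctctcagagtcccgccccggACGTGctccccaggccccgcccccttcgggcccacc
Hk2: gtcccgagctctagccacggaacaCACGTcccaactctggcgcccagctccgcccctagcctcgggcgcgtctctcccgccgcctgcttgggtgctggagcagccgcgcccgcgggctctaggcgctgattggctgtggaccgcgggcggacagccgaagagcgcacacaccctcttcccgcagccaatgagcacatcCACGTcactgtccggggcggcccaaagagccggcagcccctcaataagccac
Ldha: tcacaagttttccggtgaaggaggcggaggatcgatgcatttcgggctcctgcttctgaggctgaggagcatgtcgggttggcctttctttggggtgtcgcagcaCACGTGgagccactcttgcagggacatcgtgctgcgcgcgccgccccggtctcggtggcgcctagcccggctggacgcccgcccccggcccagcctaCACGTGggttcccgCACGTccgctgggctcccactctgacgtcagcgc
Pgk1: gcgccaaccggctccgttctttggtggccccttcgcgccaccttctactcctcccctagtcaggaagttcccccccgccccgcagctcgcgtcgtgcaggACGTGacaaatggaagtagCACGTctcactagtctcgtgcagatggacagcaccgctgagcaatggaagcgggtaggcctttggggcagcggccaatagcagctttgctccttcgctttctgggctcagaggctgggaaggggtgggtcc
Counted on both strands over 250 bases before to 50 bases after each start, ACGTG was in 8 of the 14 promoters and in 7 of the 9 genes, against 19.6% of 32851 RefSeq promoters and 21.8% of gene symbols with a promoter. The Aldoa promoters with ACGTG overlap and hold the same site, so that site counts more than once in the 8. CACGTG, which contains ACGTG on both strands, was in 1 of the 14, the Ldha promoter shown, against 7.15% of all promoters. Pfkp and Pfkl were the genes with no ACGTG in these windows. The genes that hold the letters included ones that rose, ones that fell and ones that did not pass the test in DE, so the letters did not separate the directions described below. A match of letters is a description and not a bound site.

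Total RNA counts lay between 22829536 and 29947841 in 14 of the 16 RNA libraries, and were 59995667 and 66563933 in DE replicates 4 and 51. Total counts in peaks lay between 3751526 and 9571127 per ATAC library. The labels call the libraries biological replicates and do not say how the cultures were separated, so p-values measure the spread between these libraries. Summed over 9 endoderm markers, expression was 6256 to 13265 counts per 1000000 (CPM) in the DE libraries and 34.1 to 354 CPM in the B6 EpiSC libraries, and all 9 markers rose. The 9 include Cxcr4, the receptor by which DE cells were sorted, so its rise is not independent of the sorting. Of 8 EpiSC markers, 6 fell in DE, among them Pou5f1 and Sox2, Otx2 rose and Dnmt3b did not pass the test. None of these markers was at 0 in every library. The 9 markers of feeder fibroblasts summed to 55.9 to 2439 CPM in B6 EpiSCs, 94.0 to 238 CPM in DE, 1993 to 2841 CPM in PWK EpiSCs, 119 to 180 CPM in B6.129 F1 EpiSCs and 1305 CPM in the DBA library. Of these 9 markers 7 fell in DE, Pdgfra rose and 1 did not pass. The libraries of B6 EpiSCs spanned the ranges of DE and F1 and overlapped PWK, and the part of feeder RNA in the differences below was not tested.

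In DE, 6 of the 10 genes rose and 2 fell. Glucose transporters, Hk1, Pfkl, Pkm and Ldha were 1.92-fold to 5.30-fold higher than in B6 EpiSCs, while Hk2 and Pfkp were over 5-fold lower, so that each of the hexokinase and phosphofructokinase pairs moved in opposite directions. Aldoa and Pgk1, in the middle of the pathway, did not pass the test. In this comparison 62% of the 14085 genes tested were called, 31.5% higher and 30.6% lower, at an adjusted p under 0.05 (quasi-likelihood test of edgeR, p-values adjusted by Benjamini-Hochberg over all genes). The median log2 change of the 10 genes was 1.08, and that of all genes tested was -0.01. Groups did not overlap for 8 of the 10 genes, which were the 8 called ones, against 54.6% of all genes. Levels below are CPM of each library's total count, and fold changes come from fits with scaled library sizes. In bulk samples, fewer cells that express a gene and less RNA per cell cannot be told apart.

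**Figure D1:**
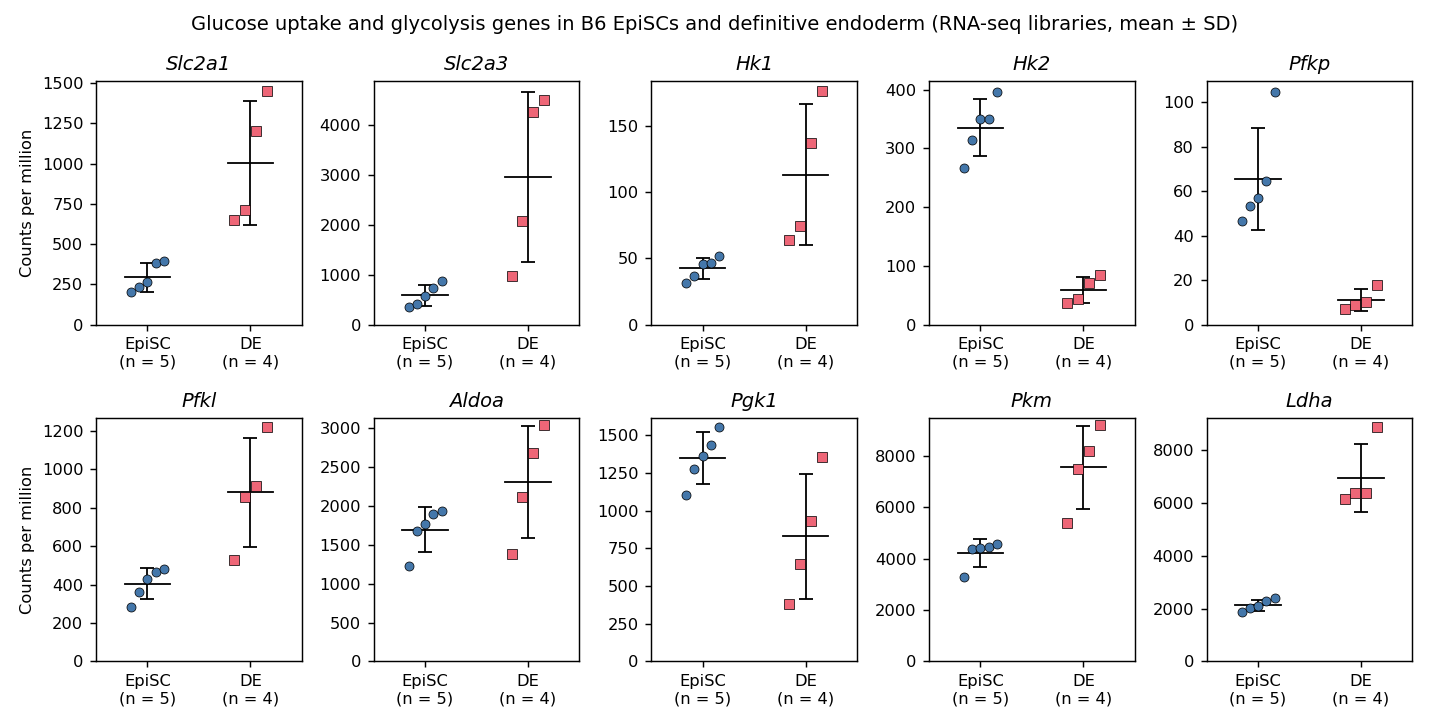
CPM (y axis, from 0) of each gene in the 5 EpiSC and 4 DE libraries of B6; each point is 1 library, and lines show the mean ± SD. Groups do not overlap for 8 genes, and they overlap for Aldoa and Pgk1.

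Slc2a1 encodes the widely expressed transporter GLUT1. Its levels in B6 EpiSC replicates 1, 2, 4, 44 and 51 were 201, 263, 386, 395 and 232 CPM, and in DE replicates 2, 4, 44 and 51 they were 715, 1205, 1450 and 653 CPM. Every DE library was above every EpiSC library, and DE replicates 4 and 44 were the highest. The fitted log2 change was 1.85 (SE 0.28, edgeR adjusted p = 0.000243), a 3.59-fold rise.

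Slc2a3 encodes GLUT3, a transporter of high affinity for glucose. It had 566, 424, 728, 869 and 359 CPM in the EpiSC libraries, in the same order, and 2084, 4269, 4499 and 979 CPM in the DE libraries. DE replicates 4 and 44 were again the highest, and DE replicate 51 was only slightly above the highest EpiSC library. The log2 change was 2.41 (SE 0.42, edgeR adjusted p = 0.000599), or 5.30-fold. The ratio of Slc2a3 to Slc2a1 counts was 1.55 to 2.81 in EpiSCs and 1.5 to 3.54 in DE, which overlap (difference of the mean log2 ratio 0.42, exact two-sided permutation test, p = 0.190).

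Hk1 encodes the hexokinase of most adult tissues. It was low in EpiSCs, at 31.8, 36.8, 46.3, 51.5 and 45.8 CPM, and was at 74.3, 137, 177 and 64.2 CPM in DE. Every DE library was above every EpiSC library, and the fitted log2 change was 1.49 (SE 0.28, edgeR adjusted p = 0.000962). Hk2 encodes a hexokinase that is typical of embryonic and proliferating cells and of insulin-responsive tissue. Its levels were 314, 350, 350, 397 and 266 CPM in EpiSCs and 36.8, 84.1, 43.8 and 71.6 CPM in DE. The groups stood far apart, and the log2 change was -2.43 (SE 0.24, edgeR adjusted p = 1.51e-05), a 5.37-fold fall.

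The balance of the 2 hexokinase transcripts did not overlap between the states. There were 9.88, 9.51, 7.55, 7.70 and 5.82 Hk2 counts per Hk1 count in the EpiSC libraries and 0.496, 0.612, 0.248 and 1.12 in the DE libraries. These are ratios of counts, not per transcript length, so only their change between groups can be read. The mean log2 ratio was 2.99 ± 0.31 (SD, n = 5) in EpiSCs and -0.89 ± 0.90 (SD, n = 4) in DE, a difference of -3.88 (exact two-sided permutation test, p = 0.0159, the smallest that 4 against 5 libraries allow). Adjusted over the 9 ratio tests made here the exact p was 0.0714. DE replicate 44 had the lowest ratio and DE replicate 51 the highest.

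Pfkp, the platelet-type phosphofructokinase subunit, had 57.1, 53.3, 64.6, 105 and 46.6 CPM in EpiSCs and 8.76, 10.4, 17.9 and 7.27 CPM in DE. EpiSC replicate 44 and DE replicate 44 were the highest of their groups, and the groups did not overlap. The log2 change was -2.47 (SE 0.32, edgeR adjusted p = 8.69e-05), a 5.55-fold fall. Pfkp overlaps the end of the neighbouring gene Pitrm1 in RefSeq. Pitrm1 also had a lower mean in DE, 46.4 CPM against 112 CPM, and strand use in the counting is not given in the sources used here, so the share of reads from either gene was not tested.

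Pfkl, the liver-type subunit, had 285, 479, 427, 463 and 363 CPM in EpiSCs and 857, 912, 1221 and 528 CPM in DE. DE replicate 51 was the lowest DE library and stood just above the highest EpiSC library. The log2 change was 1.22 (SE 0.24, edgeR adjusted p = 0.00128). Per Pfkl count there were 0.111 to 0.226 Pfkp counts in EpiSCs and 0.0102 to 0.0147 in DE, with no overlap. The mean log2 ratio was -2.66 ± 0.43 (SD, n = 5) in EpiSCs and -6.33 ± 0.24 (SD, n = 4) in DE, a difference of -3.67 (exact two-sided permutation test, p = 0.0159; 0.0714 adjusted over the 9 ratio tests). With 9 tests this adjusted value could fall under 0.05 only if more of them reached their smallest p.

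**Figure D2:**
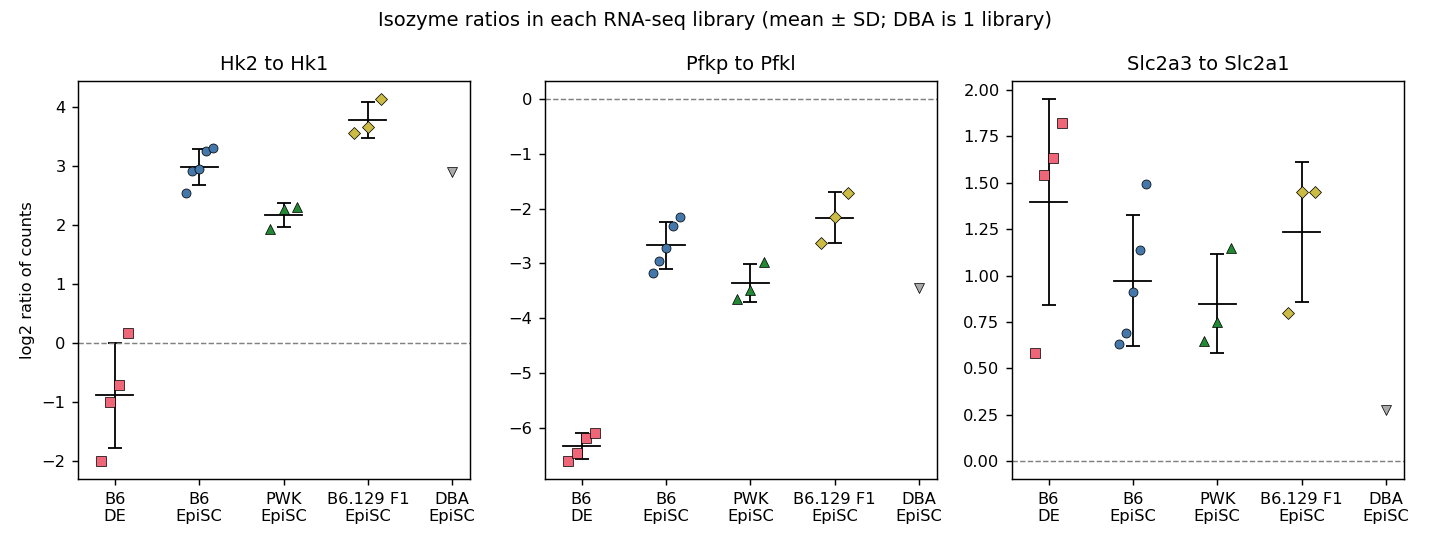
Log2 ratio of the counts (y axis) of 2 isozymes or transporters in each RNA-seq library, by group; each point is 1 library, lines show the mean ± SD, and the dashed line marks equal counts. DE libraries lie below all EpiSC libraries for Hk2 to Hk1 and for Pfkp to Pfkl, and overlap them for Slc2a3 to Slc2a1.

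Aldoa, the main aldolase outside liver, had 1223, 1766, 1891, 1931 and 1675 CPM in EpiSCs and 3044, 2120, 2679 and 1386 CPM in DE. The 2 groups overlapped through DE replicate 51, and the log2 change was 0.56 (SE 0.25, edgeR adjusted p = 0.0732). Pgk1, which makes the first ATP of the pathway, had 1364, 1275, 1438, 1559 and 1105 CPM in EpiSCs and 1357, 647, 932 and 384 CPM in DE. DE replicate 2 was within the range of EpiSCs and the other DE libraries were below it, and the log2 change was -0.57 (SE 0.33, edgeR adjusted p = 0.159). Whether either was called rested on single libraries. Without DE replicate 51 Aldoa was called higher (log2 change 0.74, edgeR adjusted p = 0.0125), and without DE replicate 2 Pgk1 was called lower (log2 change -1.0, edgeR adjusted p = 0.00656). Depth moved with this: with the less deep DE replicates 2 and 44 alone Aldoa was called higher (log2 change 0.87, edgeR adjusted p = 0.00587), and with the deeper DE replicates 4 and 51 alone Pgk1 was called lower (log2 change -1.35, edgeR adjusted p = 0.00100). The other 8 genes kept their direction and call in all of these fits.

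Pkm encodes the M1 and M2 pyruvate kinases, which gene counts do not separate. It had 3271, 4409, 4393, 4590 and 4450 CPM in EpiSCs and 8213, 7483, 9195 and 5380 CPM in DE, with no overlap, and its log2 change was 0.94 (SE 0.18, edgeR adjusted p = 0.00122). Ldha encodes the muscle-type subunit of lactate dehydrogenase. Its levels of 2089, 2398, 1874, 2274 and 2029 CPM in EpiSCs compared with 8876, 6159, 6392 and 6363 CPM in DE. All DE libraries were far above the EpiSC libraries, and DE replicate 2 was the highest. The log2 change was 1.82 (SE 0.18, edgeR adjusted p = 1.37e-05), or 3.52-fold.

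DE replicate 51 was the lowest DE library for 8 of the 10 genes, all but Hk2 and Ldha. It also had the lowest sum of endoderm markers in DE, 6256 CPM against 8423, 9755 and 13265 CPM in replicates 2, 4 and 44, and DE replicate 44, with the highest sum, was the highest for Slc2a1, Slc2a3, Hk1, Pfkp, Pfkl and Pkm. The part of marker content in this spread was not tested. Without DE replicate 51 the same 8 genes were called, and Aldoa in addition.

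Over the 9 B6 libraries, Pfkl, Aldoa and Pkm followed the mean standardised log2 CPM of the 10 genes most closely (Pearson r 0.94, 0.93 and 0.92), Pgk1 hardly followed it (r = 0.09), and Pfkp and Hk2 ran against it (r -0.45 and -0.71). Outside the lists, the 5 genes most like this mean among 5644 candidates were Mfsd10 (r = 0.93), Acp6 (r = 0.91), Aagab (r = 0.90), Creld1 (r = 0.90) and Bckdha (r = 0.89). Each of the 10 genes is part of the mean it was set against, so its r is not independent of that mean. With 2 groups that differ, r also partly restates the changes in DE described above. These values describe 9 libraries of 2 groups that also differ in depth and carry no test.

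Among the other enzymes of glycolysis, 5 of 14 tested genes of a list of 18 rose in DE and 3 fell. The 8 called of these 14 are near the 62% called of all genes. For this and the lists below, 31.5% of all genes were called higher and 30.6% lower. The largest rise was that of Hkdc1, a further gene of the hexokinase family, from 0.56 ± 0.48 CPM (SD, n = 5) to 23.1 ± 15.9 CPM (SD, n = 4), and its log2 change was 5.49 (SE 0.93, edgeR adjusted p = 0.000507). The largest fall was that of Pfkm, the third phosphofructokinase subunit, from 84.9 ± 27.7 CPM to 24.6 ± 12.5 CPM (log2 change -1.72, SE 0.36, edgeR adjusted p = 0.00196). Pfkm thus fell with Pfkp and against Pfkl. Gapdh, the step before Pgk1, fell from 5432 ± 522 CPM to 3338 ± 730 CPM (log2 change -0.59, SE 0.19, edgeR adjusted p = 0.0198). Among 8 tested glucose and lactate transporters 3 rose and none fell. Bsg, the chaperone that brings lactate transporters to the membrane, rose the most, from 353 ± 43.0 CPM to 1706 ± 528 CPM (log2 change 2.39, edgeR adjusted p = 1.67e-05).

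Of 12 tested regulators of flux, 1 rose and 2 fell. Pdk2, which inhibits pyruvate dehydrogenase, had a log2 change of 1.14 (edgeR adjusted p = 0.0123), and Pfkfb3, which makes the activator of phosphofructokinase, fell from 61.8 ± 31.6 CPM to 10.0 ± 5.57 CPM (log2 change -2.54, edgeR adjusted p = 0.00106). Genes of pyruvate entry into mitochondria mostly rose: 6 of 8 tested were higher, with Mpc2, a subunit of the mitochondrial pyruvate carrier, leading at a log2 change of 1.85 (edgeR adjusted p = 0.000528), and Pdha1 was lower at -0.37 (edgeR adjusted p = 0.00846). In the pentose phosphate pathway 4 of 8 rose and 2 fell, with extremes in Pgls (log2 change 2.69, edgeR adjusted p = 2.26e-05) and Tkt (log2 change -1.89, edgeR adjusted p = 0.000232). The median log2 changes of the lists of glycolytic enzymes, transporters, flux regulators, pyruvate entry and pentose phosphate genes were 0.44, 0.68, -0.22, 0.53 and 0.27, beside -0.01 for all genes.

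Of the glycogen genes 4 of 10 tested rose and 2 fell, led by the muscle glycogen phosphorylase Pygm (log2 change 3.25, edgeR adjusted p = 0.000974) and by Gyg, which primes glycogen, in the other direction (log2 change -1.26, edgeR adjusted p = 0.00378). Only 2 of 6 gluconeogenesis genes could be tested. G6pc3 rose (log2 change 1.68, edgeR adjusted p = 4.31e-05), and Pck2, the mitochondrial phosphoenolpyruvate carboxykinase, had no count in any DE library and a mean of 57.9 ± 16.4 CPM (SD, n = 5) in EpiSCs, at least 672-fold lower in DE against a floor of 3 counts per library. Among hypoxia response genes 8 of 15 tested rose and 2 fell, a share of higher calls of 8 in 15 beside 31.5% of all genes. Mif rose the most (log2 change 1.96, edgeR adjusted p = 0.00186), and Ndrg1, a classic hypoxia-induced gene, fell the most (log2 change -3.08, edgeR adjusted p = 5.54e-05). Of 9 transcriptional regulators of glycolysis, Vhl, which marks HIF proteins for degradation, rose (log2 change 0.84, edgeR adjusted p = 0.000568) and Arnt, the partner of HIF proteins, fell (log2 change -1.03, edgeR adjusted p = 0.00172), while the other 7 did not pass the test.

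**Figure D3:**
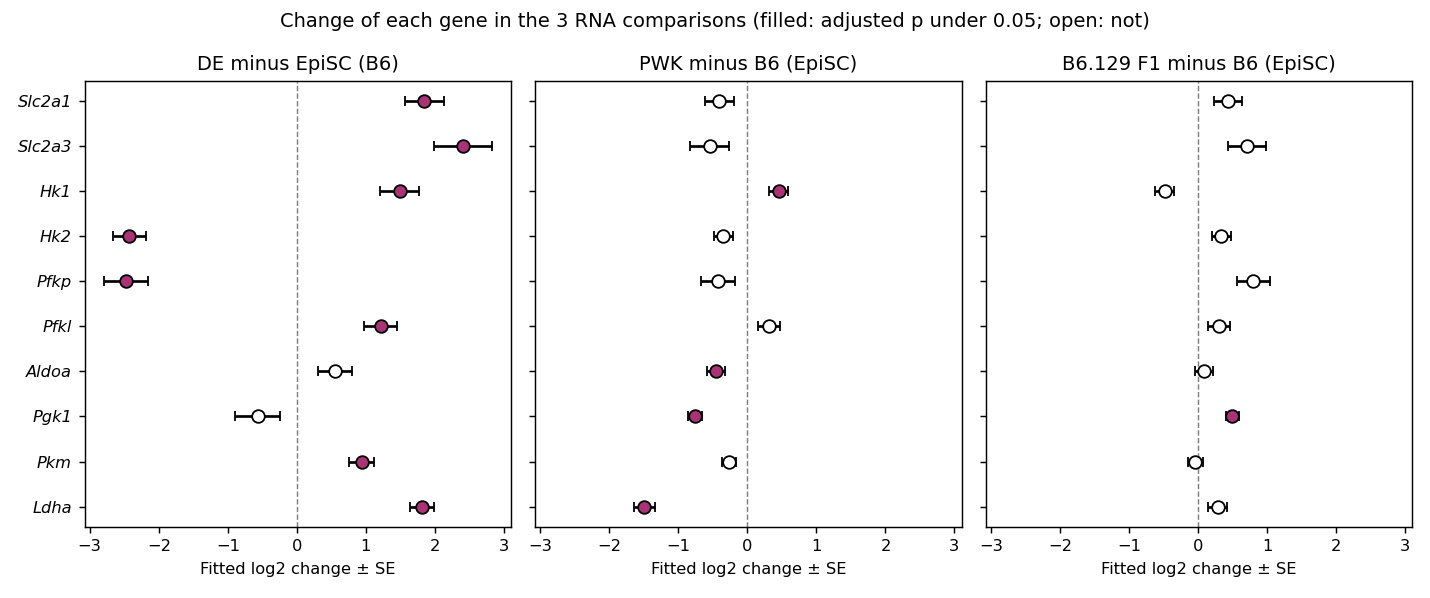
Fitted log2 change of each gene (x axis, bars are the SE) in the 3 RNA comparisons; filled points passed an adjusted p under 0.05. In DE 6 genes lie to the right of 0 and 2 to the left among the filled points; in PWK EpiSCs 1 and 3, and in B6.129 F1 EpiSCs only Pgk1.

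Among EpiSCs of different strains, the comparison with PWK/PhJ, an inbred strain of wild origin, showed 1 of the 10 genes higher and 3 lower than in B6. Ldha was 2.82-fold lower, Pgk1 1.70-fold lower and Aldoa 1.37-fold lower, and Hk1 was 1.37-fold higher. Of all 14822 genes tested, 26.5% were called, 12.0% higher and 14.5% lower. Hk1, Pgk1 and Ldha did not overlap between PWK and B6, 3 of 10 beside 32.7% of all genes. The median log2 change was -0.42 for the 10 genes and -0.01 for all genes. The comparisons with PWK, B6.129 F1 and DE share the B6 EpiSC libraries.

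Ldha had 920, 581 and 863 CPM in the PWK libraries BioRep695, BioRep698 and the third one, whose column name matches no replicate label, against 1874 to 2398 CPM (median 2089) in B6. The groups stood apart, and the log2 change was -1.49 (SE 0.15, edgeR adjusted p = 5.06e-05). Pgk1 was nearly equal in the 3 PWK libraries, at 816, 839 and 822 CPM, and below the lowest B6 library, which had 1105 CPM. Its log2 change was -0.76 (SE 0.10, edgeR adjusted p = 0.000356). Both calls held in all 11 fits that left out 1 library and in 6 other alternatives, but with a minimum of 2-fold Pgk1 was not called.

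Hk1 had 60.4, 61.3 and 60.1 CPM in PWK, above the highest B6 library at 51.5 CPM (log2 change 0.45, SE 0.14, edgeR adjusted p = 0.0335). Aldoa had 1214, 1321 and 1330 CPM in PWK and overlapped B6 through B6 replicate 1 at 1223 CPM (log2 change -0.46, SE 0.13, edgeR adjusted p = 0.0244). These 2 calls were near the threshold. Without any 1 of the 3 PWK libraries neither passed, with edgeR adjusted p of 0.0905, 0.0995 and 0.0955 for Hk1 and 0.0888, 0.0703 and 0.0642 for Aldoa. Leaving out B6 replicate 2 ended the call of Hk1 (edgeR adjusted p = 0.0594), leaving out B6 replicate 44 that of Aldoa (0.0514), and a fit to the 2 groups alone ended both (0.0634 and 0.0506).

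The other 6 genes did not pass in PWK, with log2 changes of -0.41 for Slc2a1, -0.54 for Slc2a3, -0.35 for Hk2, -0.42 for Pfkp, 0.31 for Pfkl and -0.27 for Pkm, and all 6 overlapped B6. Pkm was called lower once B6 replicate 1 was left out (log2 change -0.35, edgeR adjusted p = 0.000753), and Hk2 once B6 replicate 51 was left out (log2 change -0.41, edgeR adjusted p = 0.0360). There were 3.83 to 4.93 Hk2 counts per Hk1 count in PWK, below the 5.82 to 9.88 of B6 (mean log2 ratio 2.17 ± 0.20, SD, n = 3, against 2.99 ± 0.31, SD, n = 5; exact permutation test, p = 0.0357, the smallest that 3 against 5 allow, and 0.0804 adjusted over the 9 ratio tests). Pfkp to Pfkl ratios were 0.0801 to 0.127 in PWK and overlapped those of B6 (exact permutation test, p = 0.0714). Slc2a3 to Slc2a1 ratios also overlapped (exact permutation test, p = 0.714).

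**Figure D4:**
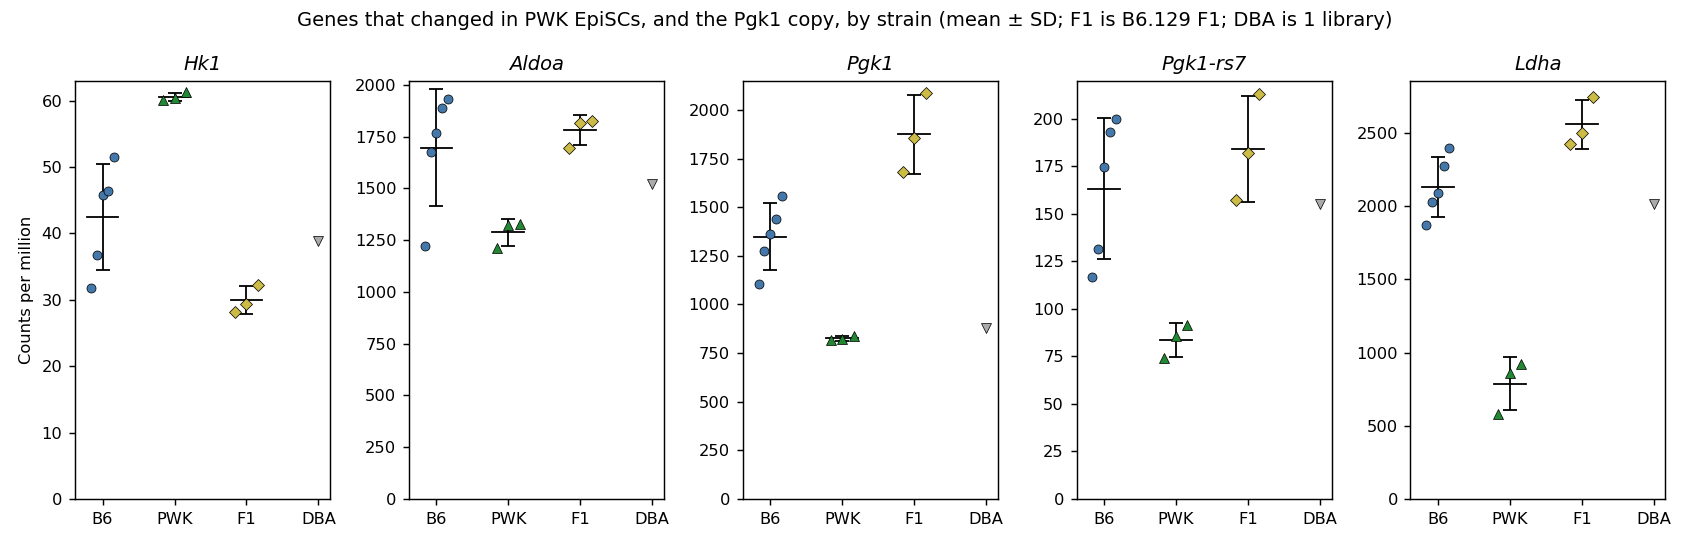
CPM (y axis, from 0) in EpiSC libraries of each strain for the 4 genes that passed the test in PWK and for Pgk1-rs7, the copy of Pgk1; each point is 1 library, and lines show the mean ± SD. Ldha, Pgk1 and Pgk1-rs7 are lower in all 3 PWK libraries than in any B6 library.

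Reads of a gene can be counted for a processed copy elsewhere in the genome, and a strain whose sequence differs from the reference can shift them. By RefSeq names and synonyms of the form -ps or -rs, 3 of the 10 genes had named copies: Aldoa with 5, Pgk1 with 3 and Ldha with 3. Copies under names of another form were not sought. None was named for Slc2a1, Slc2a3, Hk1, Hk2, Pfkp, Pfkl and Pkm. The gene tables held 3 of the Aldoa copies, 1 of the Pgk1 copies and 2 of the Ldha copies. Those of Aldoa and Ldha were below 0.3 CPM in every library, and in PWK they were not above their level in B6. The Pgk1 copy, Pgk1-rs7, is a pseudogene at chr12:10898566-10900313 (GRCm38.p6) and held many reads. It had 117, 174, 193, 200 and 132 CPM in B6 EpiSC replicates 1, 2, 4, 44 and 51 and 73.9, 91.5 and 85.8 CPM in the PWK libraries in the order above. It was lower in PWK, as Pgk1 was (log2 change -1.02, edgeR adjusted p = 0.00247). The part of Pgk1 reads counted for other copies, or lost in PWK through sequence differences, was not tested.

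Summed with its copy, Pgk1 had 1511 ± 197 CPM (SD, n = 5) in B6 and 910 ± 20.2 CPM (SD, n = 3) in PWK, and the copy held 10.7% of the sum in B6 and 9.20% in PWK. In a fit with the counts of each gene and its named copies added together, the same 4 genes were called in the same directions, with log2 changes of -0.79 for Pgk1 and -1.49 for Ldha. Gapdh, outside the set, behaved differently. It had 5432 ± 522 CPM (SD, n = 5) in B6 and 159 ± 27.3 CPM (SD, n = 3) in PWK, or -5.15 on the log2 scale (edgeR adjusted p = 2.55e-09). Its named copies, nearly all through Gapdh-ps16, held 12.7 CPM in B6 and 3341 CPM in PWK, and the sum of Gapdh and its copies was 5445 ± 522 CPM and 3500 ± 197 CPM. For Ldha the mean fell by 1345 CPM in PWK and its named copies changed by -0.045 CPM. The tables also held 3703 pseudogenes with a Gm name only, which could not be tied to a parent gene, and their share in these differences was not tested.

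Of 13 tested glycolytic enzymes outside the set, 6 were lower in PWK and none was higher. For this and the lists below, 14.5% of all genes were called lower and 12.0% higher. Gapdh led them, but its named copies held 95.5% of the sum of gene and copies in PWK, against 0.235% in B6. The others, named after their values were seen, were Gpi1, Pgam1, Bpgm, Eno1 and Eno3. The search by names of the -ps or -rs form found no copy of Eno1. Copies under other names, such as Eno1b, were not summed with Eno1, and their share in its difference was not tested. Copies of Gpi1, Pgam1, Bpgm and Eno3 were not sought. Among flux regulators 5 of 13 were lower and none higher, led by Pfkfb3 with 24.4 CPM against 61.8 CPM (log2 change -1.39, edgeR adjusted p = 0.0291). Among hypoxia response genes 5 of 15 were lower and none higher, led by the HIF hydroxylase Egln3 with 8.82 CPM against 32.8 CPM (log2 change -1.95, edgeR adjusted p = 0.0343). Transporters had 1 higher, the sodium-glucose transporter Slc5a1 (log2 change 1.89, edgeR adjusted p = 0.0153), and 2 lower, led by the lactate exporter Slc16a3 (log2 change -1.74, edgeR adjusted p = 0.00691).

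Both tested gluconeogenesis genes were lower in PWK, G6pc3 the more (log2 change -1.40, edgeR adjusted p = 0.000620). Of 9 genes of pyruvate entry 2 were lower, led by Mpc1 (log2 change -0.69, edgeR adjusted p = 0.0299). In the pentose phosphate pathway H6pd was higher (log2 change 0.73, edgeR adjusted p = 0.00469) and 2 of 8 were lower, led by Rpia (log2 change -0.51, edgeR adjusted p = 0.0131). Glycogen genes had 2 higher, led by Gbe1 (log2 change 0.78, edgeR adjusted p = 0.00562), and 2 lower, led by Gys1 (log2 change -1.13, edgeR adjusted p = 0.00215). Among the regulators Mycn was higher (log2 change 0.93, edgeR adjusted p = 0.0279) and Myc lower (log2 change -0.61, edgeR adjusted p = 0.00157). The feeder markers summed to 1993 to 2841 CPM in PWK, with only B6 replicate 51 (2439 CPM) in that range. None of the 9 passed the edgeR test, and 1 had an unadjusted p under 0.05.

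In B6.129 F1 EpiSCs, named as an F1 of B6 and 129, 1 of the 10 genes was called, beside 2.84% of all 14822 genes, 1.34% higher and 1.5% lower. Pgk1 and Ldha were the 2 genes whose libraries did not overlap with B6, beside 13.9% of all genes. Pgk1 had 2085 and 1683 CPM in F1 replicates 4 and 9 and 1856 CPM in the F1 library with no number, all above the highest B6 library at 1559 CPM (log2 change 0.50, SE 0.10, edgeR adjusted p = 0.0341). This call was lost without F1 replicate 4 (edgeR adjusted p = 0.141), without the F1 library with no number (0.164), without any 1 of the 3 PWK libraries, which share the fit (0.0543 to 0.0678), and in a fit to the 2 groups alone (0.106). Pgk1-rs7 did not pass (184 CPM against 163 CPM, log2 change 0.20). Ldha was also higher in every F1 library than in any B6 library, at 2428 to 2747 CPM, and did not pass (log2 change 0.28, edgeR adjusted p = 0.244). Over the 9 genes that did not pass, log2 changes ran from -0.48 for Hk1 to 0.80 for Pfkp, and the DESeq2 Wald test called both of these (adjusted p = 0.0193 and 0.0165).

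The F1 libraries had 11.8 to 17.6 Hk2 counts per Hk1 count, above all B6 libraries, where PWK lay below them (mean log2 ratio 3.79 ± 0.31, SD, n = 3; difference from B6 0.80, exact permutation test, p = 0.0357, and 0.0804 adjusted over the 9 ratio tests). The other 2 ratios overlapped B6. In the lists around the pathway, Slc2a10 was lower (0.20 CPM against 1.19 CPM, log2 change -2.51, edgeR adjusted p = 0.0243) and Arrdc4 and Kdm3a were higher (log2 change 0.42 and 0.41, edgeR adjusted p = 0.0493 and 0.0465), and no other gene of these lists was called. Of the 13 other glycolytic enzymes 0 were called by edgeR, and 2 had an unadjusted p under 0.05. Feeder markers in F1 summed to 119 to 180 CPM, below all B6 libraries but replicate 1. None of the 9 passed, although all 9 had an unadjusted p under 0.05, and their part in the F1 differences was not tested.

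The DBA/2J group had 1 library, so its values have no replicate check and no test. Slc2a3 had 244 CPM, Pfkp 35.4 CPM and Pgk1 879 CPM, each below the lowest B6 library, and the other 7 genes were within the B6 range. Of 12759 genes with a mean of at least 1 CPM, 23.1% were below the lowest B6 library. Slc2a3 was the only 1 of the 10 genes more than 2-fold from the B6 mean (log2 ratio -1.27), beside 8.06% of those genes in either direction. Gapdh had 1522 CPM in this library, below every B6 library, and its named copies held 8.25 CPM.

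Accessibility at the starts of most of these genes did not pass the test in DE, also where the transcript rose or fell several-fold. ATAC-seq counts reads of transposed, open chromatin, and levels below are CPM of the scaled library within its peak table, whose coordinates are given as deposited (mm10, per the submitters' processing notes). The table of B6 libraries had 21 tested peaks within 2 kb of a listed start of the 10 genes (of either end for Slc2a3, whose start is not listed), of which 3 were higher and 3 lower in DE. Of all 113870 tested peaks 57.6% were called, 32.6% higher and 25.0% lower. Of the 23588 peaks within 2 kb of any listed start, a background added after the data were seen, 34.9% were called, 17.9% higher and 17.1% lower. The 6 of 21 is thus near the background of starts. Groups did not overlap at 4 of the 21 peaks, against 53.8% of all peaks. The share without overlap was not computed for peaks near starts alone.

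At each gene the most accessible of these peaks was compared, and 8 of 10 did not pass. At Slc2a1 the peak over the start (chr4:119108530-119108960) had 48.6, 55.8, 52.2 and 56.6 CPM in DE replicates 2, 4, 44 and 51 and 50.1, 48.1, 64.6 and 63.0 CPM in EpiSC replicates 1, 4, 44 and 51, which overlap (log2 change -0.08, SE 0.13). At Hk2 the peak over the start (chr6:82774357-82774712) had 49.2, 47.0, 42.5 and 50.5 CPM in DE and 42.5, 45.3, 59.3 and 49.7 CPM in EpiSCs (log2 change -0.05, SE 0.13). Accessibility thus overlapped both at the start of the gene that rose 3.59-fold and at that of the gene that fell 5.37-fold. Log2 changes of the other 6 were 0.06 for Hk1, 0.41 for Pfkp, 0.00 for Pfkl, 0.15 for Aldoa, -0.03 for Pgk1 and 0.08 for Pkm, each with overlap. At 2 starts a call appeared under an alternative: Slc2a1 was lower with unscaled library totals (log2 change -0.29, edgeR adjusted p = 0.0458), and Pgk1 was lower without DE replicate 44 (log2 change -0.38, edgeR adjusted p = 0.0462), which stood at 78.3 CPM against 36.0 to 43.5 CPM in the other DE libraries.

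Ldha had the one peak over a start that passed, and only narrowly. This peak, at chr7:46845661-46845885, overlaps the promoter sequence shown above and had 14.5, 11.3, 9.82 and 10.98 CPM in DE and 9.59, 6.49, 3.89 and 8.85 CPM in EpiSCs. The lowest DE library lay just above the highest EpiSC library, and the log2 change was 0.67 (SE 0.27, edgeR adjusted p = 0.0416). The call held in 1 of 8 fits that left out 1 library and in 1 of 5 other alternatives, with log2 changes from 0.42 to 0.75 and edgeR adjusted p up to 0.226. All 4 DE libraries and EpiSC replicates 4, 44 and 51 were each needed for it. For Slc2a3 the most accessible peak, 493 bp beyond the end at the lower coordinate (chr6:122726947-122727316), rose from 0.914, 1.91, 2.43 and 0.443 CPM in EpiSCs to 11.96, 8.46, 11.2 and 3.84 CPM in DE (log2 change 2.68, SE 0.44, edgeR adjusted p = 2.60e-05), and the call held in all 12 alternatives. DE replicate 51 was the lowest DE library here, as it was for the Slc2a3 transcript. Which end of Slc2a3 holds its start is not given in the sources used here, so this peak may not lie near the start. The peak 719 bp from the end at the higher coordinate (chr6:122801439-122801644) did not pass. It had means of 3.23 CPM in DE and 4.45 CPM in EpiSCs, with overlap (log2 change -0.40, SE 0.38, edgeR adjusted p = 0.384).

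The other called peaks near starts, chosen because they passed, were small and lay beside the main ones. Inside Hk2, 1373 bp downstream of the start, the peak at chr6:82772911-82773081 fell from 7.46, 7.35, 12.6 and 13.9 CPM in EpiSCs to 2.74, 1.88, 2.73 and 1.10 CPM in DE (log2 change -2.22, SE 0.35, edgeR adjusted p = 1.60e-05). Inside Pfkp, 1518 bp downstream, the peak at chr13:6647092-6647253 fell from 4.57, 3.34, 4.13 and 6.05 CPM to 0.980, 0.627, 1.09 and 0.824 CPM (log2 change -2.32, edgeR adjusted p = 0.000138). Hk2 and Pfkp are the genes of the set whose transcripts fell, but a link of these peaks to the transcripts was not tested. A second Pfkp peak, 584 bp downstream (chr13:6648036-6648187), went the other way, from a mean of 2.40 to 6.27 CPM with overlapping libraries (log2 change 1.34, edgeR adjusted p = 0.00683), and a peak 15 bp upstream of the second listed Ldha start (chr7:46846988-46847067) fell from 3.44 to 1.36 CPM, also with overlap (log2 change -1.25, edgeR adjusted p = 0.0319). The call of this second Pfkp peak was lost without DE replicate 44 (edgeR adjusted p = 0.0501) and in a fit to only the libraries numbered 4, 44 and 51 (0.0631). That of the second Ldha peak was lost without DE replicate 44 (0.0659), DE replicate 51 (0.0689) or EpiSC replicate 44 (0.0564), and in the fit to the libraries numbered 4, 44 and 51 (0.0566).

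**Figure D5:**
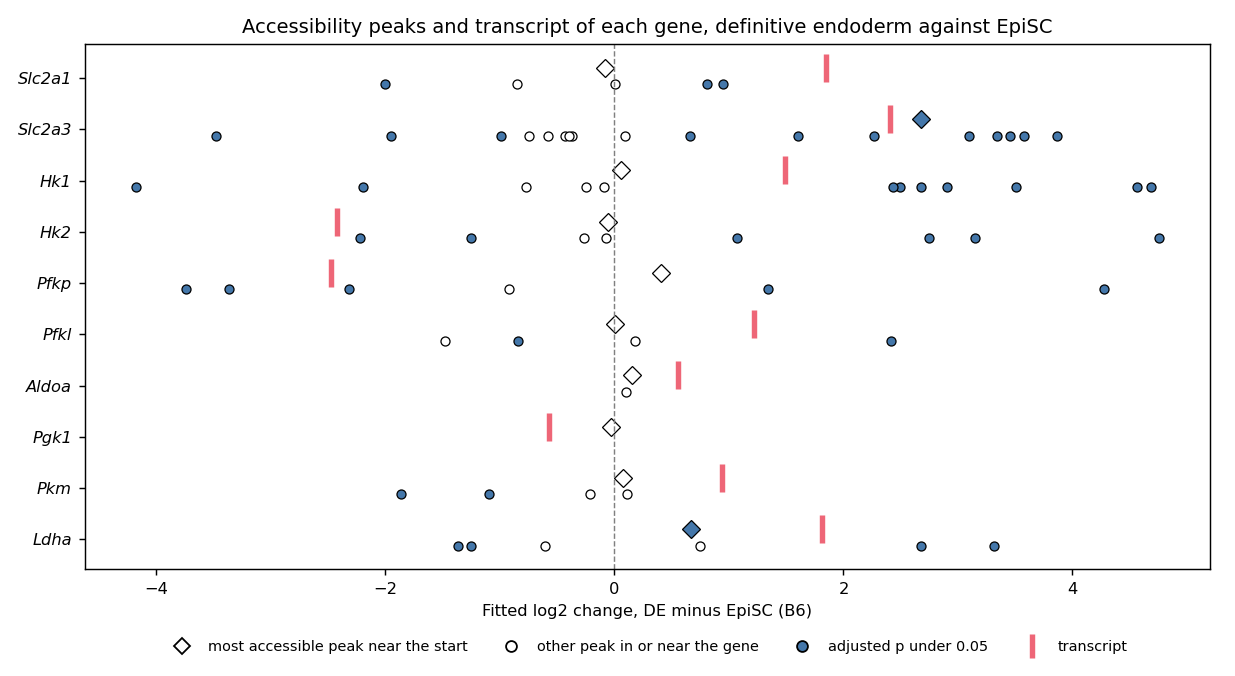
Fitted log2 change, DE against EpiSC of B6 (x axis), of every tested accessibility peak in each gene or within 2 kb of it. Diamonds are the most accessible peak near the start, or near either end for Slc2a3, whose start is not listed. Circles are the other peaks, filled symbols passed an adjusted p under 0.05, and red bars mark the change of the transcript. Most diamonds sit near 0, except those of Slc2a3 and Ldha, and circles lie on both sides.

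Over the whole genes and 2 kb beyond them, 44 of 73 tested peaks were called, 28 higher and 16 lower, beside 57.6% of all peaks. Slc2a3 had 9 of 18 peaks higher and 3 lower, and Hk1 had 7 of 13 higher and 2 lower, the largest at a log2 change of 4.68. Hk2 had 4 of 9 peaks higher and 2 lower, although its transcript fell, with the largest log2 change at 4.76. Pfkp had 2 of 7 higher and 3 lower. Ldha had 3 of 7 higher and 2 lower, Slc2a1 2 of 6 higher and 1 lower, and Pfkl 1 of 5 higher and 1 lower. Pkm, whose transcript rose, had 2 of 5 peaks lower and none higher. Aldoa, with 2 peaks, and Pgk1, with 1, had none called.

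In PWK EpiSCs 0 of 22 tested peaks near the starts were called by edgeR, 2 of them with an unadjusted p under 0.05, beside 5.11% of 137667 tested peaks and 3.11% of the 25582 near any listed start. At Ldha the peak over the start had 4.04 and 6.78 CPM in PWK BioRep698 and the other PWK library and 4.00 to 10.1 CPM in B6, with overlap (log2 change -0.48, SE 0.40, edgeR adjusted p = 0.611). At Pgk1 it had 51.5 and 43.0 CPM in PWK and 49.3 to 65.3 CPM in B6 (log2 change -0.19, SE 0.17, edgeR adjusted p = 0.660). Over the whole genes 4 of 66 peaks were called, and these, named because they passed, were not within 2 kb of a listed start (of either end for Slc2a3). They were higher in Slc2a3 (chr6:122743433-122743614, log2 change 1.52) and in Ldha (chr7:46842369-46842467, log2 change 3.35), just inside the 5′ end of the RefSeq gene at 46842274 and 3337 bp upstream of the first listed start, and lower in Hk1 (chr10:62335455-62335587, log2 change -3.99) and in Pfkp (chr13:6580432-6580727, log2 change -2.34), with edgeR adjusted p of 0.00796, 0.00611, 0.00505 and 0.00944. The Pfkp call was lost without B6 replicate 4 (edgeR adjusted p = 0.0528). The Hk1 peak held few reads in PWK, at 0.11 and 0.70 CPM in the 2 libraries. Of all tested peaks, 1957 were called higher and 5073 lower in PWK. The part of reads lost in PWK through sequence differences from mm10 was not tested.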

How the data were processed

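RNA-seq and ATAC-seq were deposited by the authors as tables of raw counts per gene and per peak. The submitters' processing notes name Salmon, featureCounts, DESeq2, fastp, Bowtie2, MACS2 and mm10, with no versions, settings or roles. The B6 table and the EpiSC table were fitted separately.

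From the deposited counts, TMM scaling, filterByExpr and edgeR's quasi-likelihood test (edgeR 4.0.16, R 4.3.3; trended dispersions, robust fit) were run over all genes or peaks, with Benjamini-Hochberg adjustment and a threshold of 0.05. The 3 replicated EpiSC strains shared 1 RNA fit. Each SE was derived from the test, as the size of the log2 change divided by the square root of the F statistic. The steps were tested on simulated data. Isozyme ratios were compared by exact permutation tests. DESeq2 1.42.0, other scalings, filters and left-out libraries were alternatives. Printed RNA levels are unscaled, and folds come from scaled fits. Gene lengths were not used, so levels were not compared between genes.

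All 10 genes were reported. From each other list, the called gene with the largest change in each direction was named, with Gapdh always. Copies were named from a mean of 1 CPM in EpiSCs. The peak with the highest mean within 2 kb of a start (of either end for Slc2a3) was named for each gene. The genes and lists were chosen with earlier results of these data known. The background of peaks near starts and the fits to paired libraries without a block were added after seeing the data. Gene starts and promoters are RefSeq's (GRCm38.p6), and whether peak starts count from 0 or 1 is not given in the sources used here. PWK DE (3 samples), the DBA ATAC library and 17 columns matched to no sample were not used. The names of 1 PWK column in each assay and 1 B6.129 F1 column matched no replicate label, and these were mapped to their group only.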

Additional observations from a re-analysis of the deposited data

Results flagged for a closer look

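Of 64 groups of 4 or 5 libraries examined, 5 held a library whose distance from the nearest other exceeded Dixon's 95% limit for the group's range, and chance gives about 1 in 20. Pkm was lowest in B6 EpiSC replicate 1, at 3271 CPM, against 4393 to 4590 CPM in the other 4. Ldha was highest in DE replicate 2, at 8876 CPM, against 6159 to 6392 CPM in the other 3. The peak near the Pfkl start was lowest in DE replicate 44, at 19.8 CPM. The peak over the Pgk1 start was highest in B6 EpiSC replicate 44, at 63.4 CPM in the B6 table and 65.3 CPM in the EpiSC table, which hold the same library.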

How the results depend on the processing

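For DE against EpiSCs, 8 of the 10 genes were called, 8 to 9 when 1 library was left out and 8 with the replicate block. Same-numbered libraries correlated at 0.0881 to 0.237 in RNA, each best with its own number, and at -0.0052 to 0.0485 in ATAC, and the labels do not say that numbers pair cultures. For PWK, 4 genes were called, 2 in a fit to the 2 groups alone, 1 with a 2-fold minimum and 2 to 5 with 1 library left out, and with copies summed also 2 to 5. For B6.129 F1, 1 gene was called, 3 by DESeq2, 0 in a fit to the 2 groups alone, 0 with a 2-fold minimum and 0 to 2 with 1 library left out. Of 21 peaks near starts 6 were called in DE, 3 of 16 within 500 bp, 44 of 73 over the whole genes, 1 of 14 with at least 10 counts in every library, 3 with the replicate block (adjusted p = 0.0932 for the peak over the Ldha start, and 0.148 and 0.128 for the second Pfkp and Ldha peaks), 3 in the same paired libraries with no replicate block, and 4 to 6 with 1 library left out. In PWK 0 peaks near starts were called and 4 over the whole genes. With unscaled library totals the median log2 change of all peaks moved from -0.0051 to -0.22 in DE and from 0.0398 to 0.124 in PWK, and that of all genes in DE from -0.0145 to -0.104. No isozyme ratio passed under any alternative run. With so few libraries none could pass unless more of the 9 ratio tests reached their smallest p, so this does not show stability. The ratio fits counted below as keeping their call are limited in the same way. Signs turned for 2 values that were not called, when 1 library was left out: the Pkm log2 change in B6.129 F1 ran from -0.0823 to 0.0081, and the Slc2a3 to Slc2a1 difference in PWK from -0.275 to 0.0055. Of the other fits to single genes, ratios and called peaks, 268 of those that changed a setting kept direction and call, 11 lost the call and 4 gained it, and 423 of those that left out 1 library kept both, 25 lost the call and 6 gained it. Where fewer libraries were fitted, fewer degrees of freedom were left, and otherwise the cause was not tested.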
